A study of Mus musculus with 4 samples.

Results

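The 7 caspase genes described here are Casp1, Casp4 and Casp12 of the inflammatory group and Casp2, Casp6, Casp8 and Casp9 of the apoptotic group, out of 20140 mouse genes that could be named on the array. They were found through the RefSeq accession that the array files give for each probe, which led to 8 probes among 39429 gene probes, 2 of them for Casp4 and 1 for each of the other 6 genes. Messenger RNA was measured in 2 mouse tumor cell lines on 4 one-colour arrays, with 1 array for each group. The groups were LLC cells (also labelled 3LL, a lung carcinoma line of C57BL6 mice) kept for 24 h with interferon gamma (IFN-γ), LLC cells kept for 24 h with vehicle, AB1-HA cells (a mesothelioma line of BALB/c mice engineered to carry hemagglutinin of influenza virus) kept for 24 h with IFN-γ, and AB1-HA cells kept for 24 h with vehicle. The sources used here do not give the IFN-γ dose. The series title speaks of a repressor of IFN-γ-inducible factors in tumor cells.

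Caspases are proteases that cut their substrates after aspartate, and they are made as inactive precursors that are activated in large protein complexes or by other caspases. The inflammatory group acts in the inflammasome pathways: caspase-1 matures the cytokines IL-1β and IL-18 and cuts gasdermin D, whose fragment opens pores in the cell membrane, and mouse caspase-4, long known as caspase-11, binds bacterial lipopolysaccharide (LPS) in the cytosol and cuts gasdermin D as well. The apoptotic group holds the initiators caspase-8 (death receptors), caspase-9 (the apoptosome) and caspase-2 (the PIDDosome), and the effector caspase-6, which cuts lamin A. IFN-γ is known to raise inflammatory caspases in macrophages and many other cell types.

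On each array 57.5% to 58.2% of the gene probes were well above background, no spot was saturated, and the 75th percentile of the processed signal lay between 1380 and 1598 intensity units. With 1 array in each group there was no replicate check, no test was run, the number of arrays limits the precision, and a difference of at least 2-fold is a size and not a sign of significance. The error given with a value is the scanner software's own estimate for that spot, which covers neither culture nor labelling. Irf1, the transcription factor that carries much of the IFN-γ response, was 4.43 higher on the log2 scale with IFN-γ in LLC and 4.44 in AB1-HA. Of the other genes chosen as response checks, Cd274 was higher by 5.59 in LLC and 7.60 in AB1-HA. Irf8 was higher by 2.02 in LLC and was not well above background on either AB1-HA array. The labelled origins had mixed marker signals. Of the mesothelial markers, Msln was bright in AB1-HA (38827 with IFN-γ and 50299 with vehicle) and dim in LLC (50.1 and 154), but the keratin Krt18 was bright in LLC (92310 and 134098) and dim in AB1-HA (85.9 and 239), as was Krt8. Pdpn and Krt19 went the way of Msln. Pdpn was at 9458 and 8991 in AB1-HA against 9.44 and 6.48 in LLC (the last not well above background), and Krt19 at 2282 and 3249 against 603 and 1167. In each condition 6 mesothelial markers had a value. Of these, 3 were at least 2-fold lower in LLC and 2 higher, while 32.5% (vehicle) and 28.6% (IFN-γ) of all genes differed so. The summed signal of all 12 was 99525 and 144915 in LLC against 50684 and 62846 in AB1-HA (IFN-γ, vehicle), made up mostly of Krt18 in LLC and of Msln in AB1-HA. Of 13 lung epithelial markers, summing to 2284 and 2075 in LLC and to 3717 and 3690 in AB1-HA, Napsa was brighter in AB1-HA (373 and 328) than in LLC (8.35, not well above background, and 12.7). Wt1 and Calb2 (mesothelial) and Epcam, Cdh1 and Nkx2-1 (lung epithelial) were not well above background on any array, so the markers do not set the lines apart as mesothelial and lung epithelial. Leukocytes, which express inflammatory caspases, were checked with 11 marker genes: Csf1r, Itgam, Cd3e and Fcer1g (4 of 11) were well above background on each array, with summed signals over the list of 4134 and 3753 in LLC (IFN-γ, vehicle) and 4629 and 4303 in AB1-HA, and Ptprc, Adgre1, Lyz2, Tyrobp and Laptm5 were not well above background on any array. Of these genes, Csf1r was at least 2-fold higher with IFN-γ in LLC (537 against 183, a log2 difference of 1.74, or 0.28 on its other probe above background) and at −0.35 in AB1-HA, and its part in the caspase differences was not tested.

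Casp1, Casp4 and Casp12 are direct neighbours on mouse chromosome 9, with no other gene listed between them in the RefSeq table, whereas Casp2, Casp6, Casp8 and Casp9 lie on chromosomes 6, 3, 1 and 4. The promoter windows of the 3 neighbours are printed here because these are the members that were higher with IFN-γ in both lines, together with that of Casp8 as a member of the apoptotic group. They are RefSeq sequences of build GRCm38.p6, all on the plus strand, running from 250 bases before to 50 bases after the start of transcription: chr9:5298267-5298566 for Casp1, chr9:5308599-5308898 for the more upstream of both annotated Casp4 starts, chr9:5345226-5345525 for Casp12 and chr1:58802252-58802551 for Casp8. Capitals mark matches, on either strand, to the gamma-activated site TTCNNNGAA (bound by STAT dimers) or to the core of the interferon-stimulated response element (bound by IRF factors and the ISGF3 complex), read as GAAA repeated after 2 or after 3 bases of any kind.
Casp1: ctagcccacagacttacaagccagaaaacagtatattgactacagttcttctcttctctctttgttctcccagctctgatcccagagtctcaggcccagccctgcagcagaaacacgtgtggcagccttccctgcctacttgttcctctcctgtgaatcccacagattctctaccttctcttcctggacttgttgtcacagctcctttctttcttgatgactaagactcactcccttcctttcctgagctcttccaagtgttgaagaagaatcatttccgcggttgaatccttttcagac
Casp4: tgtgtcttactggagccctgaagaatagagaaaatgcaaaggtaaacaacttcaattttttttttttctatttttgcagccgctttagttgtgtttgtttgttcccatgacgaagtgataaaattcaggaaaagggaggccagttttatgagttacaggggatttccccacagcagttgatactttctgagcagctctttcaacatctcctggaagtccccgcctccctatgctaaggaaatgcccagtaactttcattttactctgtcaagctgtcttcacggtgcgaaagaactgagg
Casp12: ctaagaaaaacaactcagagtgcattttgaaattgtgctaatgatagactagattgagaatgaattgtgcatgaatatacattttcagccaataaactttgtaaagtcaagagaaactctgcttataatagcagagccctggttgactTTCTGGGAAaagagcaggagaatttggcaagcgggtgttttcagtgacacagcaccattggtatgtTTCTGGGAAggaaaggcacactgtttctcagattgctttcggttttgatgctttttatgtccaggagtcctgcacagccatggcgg
Casp8: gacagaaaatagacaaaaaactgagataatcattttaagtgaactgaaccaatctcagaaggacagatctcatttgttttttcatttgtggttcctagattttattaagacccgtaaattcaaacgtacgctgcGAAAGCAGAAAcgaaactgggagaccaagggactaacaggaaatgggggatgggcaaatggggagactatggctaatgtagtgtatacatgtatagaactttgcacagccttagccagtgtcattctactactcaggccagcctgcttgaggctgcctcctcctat
The Casp12 window held 2 matches to TTCNNNGAA, both reading TTCTGGGAA, which begin at positions −102 and −36 from the start. Of 32851 promoter windows of the same length, 8.30% held at least 1 such match and 0.457% held 2 or more. The GAAA repeat after 2 bases, found in 3.44% of the windows, was not among the letters of any of the 7 genes' windows, and the repeat after 3 bases, found in 2.75%, matched in Casp8 only, as GAAAGCAGAAA from position −116. Neither the gamma-activated site with 4 bases in its middle (6.95% of windows) nor an NF-κB-type motif of GGGA and TCC around 3 bases (4.59%) was found in a window of the 7 genes. The Casp4 window does hold GGGATTTCCC, which departs from that NF-κB-type pattern in 1 base, so the absence holds only for the letters searched. The short GGAAA, in 61.3% of windows, was present in those of all but Casp9. In Casp12 it overlapped 1 of the 2 TTCNNNGAA matches and stood directly next to the other. G and C made up 48%, 42% and 41% of the Casp1, Casp4 and Casp12 windows and between 42% (Casp8) and 66% (Casp9) of those of the apoptotic group. A match is a description of the letters and not evidence of a bound site.

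The first question was which caspases differed after 24 h of IFN-γ in each line. All 3 inflammatory caspases were at least 2-fold higher with IFN-γ in LLC and in AB1-HA, and none of the 4 apoptotic members differed by 2-fold in either line. The background was 3.68% of 13411 genes higher by that much in LLC (5.15% in either direction) and 2.98% of 13208 in AB1-HA (4.15% in either direction). All 8 probes were well above background on all 4 arrays, so none of the member values is a bound.

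Casp1, the protease of the canonical inflammasomes, had a processed signal of 2998 intensity units on the LLC array with IFN-γ, against 339 on the LLC vehicle array. In AB1-HA it had 38353 with IFN-γ, against 7431 with vehicle. Casp1 was thus higher with IFN-γ in both lines, and every AB1-HA signal lay above every LLC signal. After scaling each array to its 75th percentile, the difference between IFN-γ and vehicle was 3.33 ± 0.20 on the log2 scale in LLC (10.1-fold) and 2.33 ± 0.20 in AB1-HA (5.02-fold), with the scanner's error. These differences placed Casp1 106th from the top among the genes with a value in LLC and 180th in AB1-HA.

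Casp4, the cytosolic LPS receptor of the noncanonical inflammasome, had 1320 intensity units in LLC with IFN-γ, against 166 with vehicle. In AB1-HA it had 8766 with IFN-γ, against 2357 with vehicle. Like Casp1, it was higher with IFN-γ in both lines and brighter on both AB1-HA arrays than on either LLC array. The differences were 3.18 ± 0.20 in LLC (9.09-fold) and 1.86 ± 0.20 in AB1-HA (3.62-fold) on the log2 scale. The second Casp4 probe gave the same picture, with 1138 units in LLC with IFN-γ against 139.6 with vehicle, and with 7590 in AB1-HA with IFN-γ against 1850 with vehicle. Its log2 differences, 3.22 in LLC and 2.0 in AB1-HA, were within the scanner error of those of the first probe.

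Casp12, a caspase of the inflammatory cluster that resides at the endoplasmic reticulum in mouse cells, was dim on the vehicle arrays. It had 99.1 ± 10 intensity units in LLC with IFN-γ, against 17.2 ± 3.2 with vehicle (± the scanner's error). In AB1-HA it had 156 ± 16 with IFN-γ, against 20.7 ± 3.6 with vehicle. Both IFN-γ arrays were above both vehicle arrays, whichever the line, unlike the order seen for Casp1 and Casp4. The log2 differences were 2.72 ± 0.31 in LLC (6.57-fold) and 2.87 ± 0.29 in AB1-HA (7.32-fold). The lowest signals that counted as well above background were 7.01 to 8.26 units, so the vehicle values of Casp12 sit close to the limit of measurement. Among repeated probes with mean signals under 100 units, the SD of a log2 difference over repeat spots had a median of 0.21 in LLC and 0.18 in AB1-HA, against 0.037 and 0.058 for brighter ones. With normexp background correction, which adds a constant to each signal, the Casp12 difference was 0.56 in LLC, short of 2-fold, and 1.43 in AB1-HA.

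**Figure D1:**
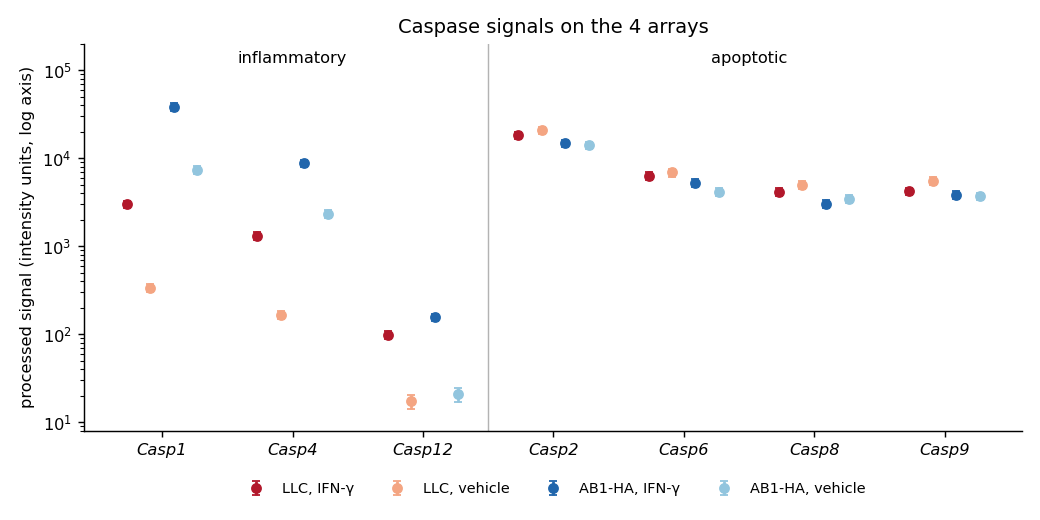
Processed signal (intensity units, log axis) of each caspase on the 4 arrays, 1 point per array, for the probe used per gene, with the scanner software's error estimate as bars. Casp1 and Casp4 lie higher with IFN-γ within each line and higher in AB1-HA than in LLC, Casp12 is at 99.1 and 156 with IFN-γ and at 17.2 and 20.7 with vehicle, and the 4 apoptotic caspases lie close together across arrays. Signals of different probes are not comparable as levels.

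The apoptotic members had nearly level signals. Casp2, the caspase of the PIDDosome, had 18278 intensity units in LLC with IFN-γ, against 20784 with vehicle, and 14814 in AB1-HA with IFN-γ, against 14113 with vehicle. Once the arrays were scaled, its log2 differences were 0.01 in LLC and 0.03 in AB1-HA, the smallest of the 7 members in LLC. Casp6, the effector caspase among the members, had 6308 in LLC with IFN-γ, against 6907 with vehicle, and 5267 in AB1-HA with IFN-γ, against 4179 with vehicle. Its log2 differences were 0.06 in LLC and 0.29 in AB1-HA, the second being beyond the scanner error of 0.20 but far under 2-fold.

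Casp8, the initiator of death receptor signalling that also restrains necroptosis, had 4163 units in LLC with IFN-γ, against 5013 with vehicle, and 3044 in AB1-HA with IFN-γ, against 3491 with vehicle. Its differences were −0.08 in LLC and −0.24 in AB1-HA. Casp9, the initiator activated on the apoptosome, had 4224 units in LLC with IFN-γ, against 5549 with vehicle, and 3877 in AB1-HA with IFN-γ, against 3711 with vehicle. Its differences were −0.20 in LLC and 0.02 in AB1-HA. Of the 4 apoptotic members, 0 differed by more than the scanner error in LLC, and 2 (Casp6 and Casp8) did so in AB1-HA.

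Set side by side, the inflammatory members had a median log2 difference of 3.18 in LLC and 2.33 in AB1-HA, and the apoptotic members one of −0.04 in LLC and 0.03 in AB1-HA. The medians over all genes with a value were −0.06 in LLC and −0.08 in AB1-HA, so the apoptotic medians were close to those of the array as a whole. The scaling moves these small values: when arrays were scaled to their medians, the median over all genes in LLC was −0.20, and Casp2 and Casp6 lay at −0.14 and −0.09. The lowest difference of an inflammatory member was 2.72 in LLC and 1.86 in AB1-HA, and the highest of an apoptotic member was 0.06 in LLC and 0.29 in AB1-HA.

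**Figure D2:**
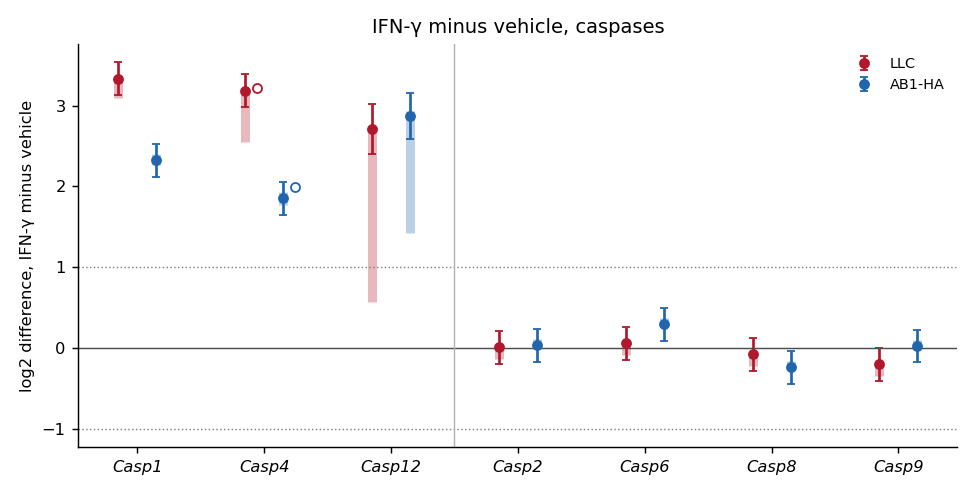
Log2 difference between IFN-γ and vehicle for each caspase in LLC and AB1-HA. Filled points are the values for the probe used, with the scanner error as bars, open points the second Casp4 probe, shaded bars the range over the other processing settings tried, and dotted lines 2-fold. The inflammatory members lie between 1.86 and 3.33 and the apoptotic members between −0.24 and 0.29, and the Casp12 shading reaches down to 0.56 in LLC.

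**Figure D3:**
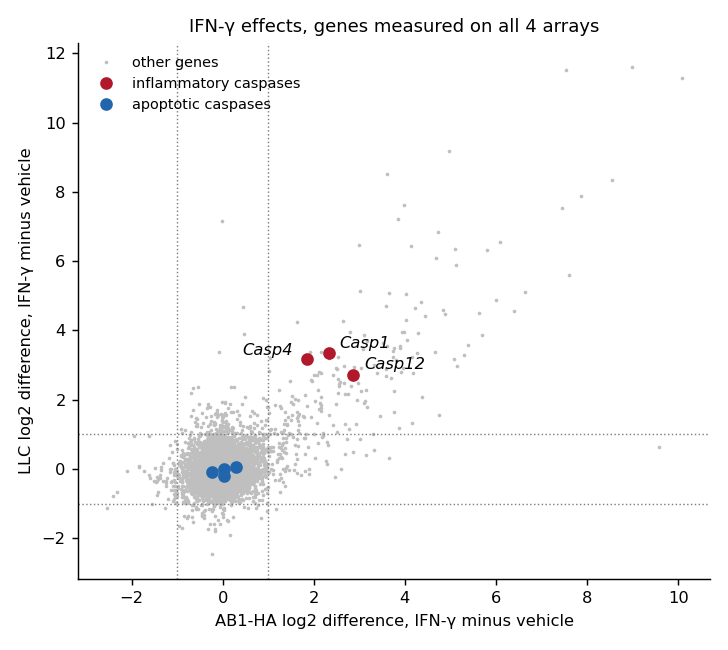
Log2 difference between IFN-γ and vehicle in AB1-HA (x axis) and LLC (y axis), 1 point for each of 11985 genes well above background on all 4 arrays, with dotted lines at 2-fold. The 3 inflammatory caspases lie past 2-fold on both axes, and the 4 apoptotic caspases lie within the central cloud.

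The second question was how the lines differed in their caspases before and after IFN-γ. Line, tissue of origin and mouse strain cannot be told apart in this comparison. Casp1 and Casp4 were much lower in LLC than in AB1-HA in both conditions, whereas Casp12 and the apoptotic members were within 2-fold. With vehicle, the difference between LLC and AB1-HA was −4.66 ± 0.20 on the log2 scale for Casp1, or 25.4-fold lower in LLC, and −4.04 ± 0.20 for Casp4, or 16.5-fold lower. With IFN-γ the differences were −3.66 ± 0.20 for Casp1 (12.6-fold lower in LLC) and −2.71 ± 0.20 for Casp4 (6.55-fold lower). Of all genes with a value, 16.0% of 13836 were at least 2-fold lower in LLC with vehicle and 13.3% of 13893 with IFN-γ, against 2 of the 7 members in each condition, and 32.5% and 28.6% of them differed by 2-fold in either direction.

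LLC cells with IFN-γ did not reach the Casp1 and Casp4 signals that AB1-HA cells had with vehicle. Casp1 had 2998 units in LLC with IFN-γ and 7431 in AB1-HA with vehicle, a scaled difference of −1.33 on the log2 scale, or 2.51-fold lower in LLC. Casp4 had 1320 in LLC with IFN-γ and 2357 in AB1-HA with vehicle, a difference of −0.86, or 1.81-fold. Casp12 went the other way, since its 99.1 units in LLC with IFN-γ were 4.72-fold above the 20.7 units in AB1-HA with vehicle after scaling.

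Casp12 was 0.48 ± 0.37 lower in LLC with vehicle on the log2 scale and 0.63 ± 0.21 lower with IFN-γ. The vehicle difference turned sign, to 0.35, with normexp background correction. The 4 apoptotic members had slightly higher values in LLC: their differences from AB1-HA ran from 0.31 (Casp8) to 0.51 (Casp6) with vehicle. With IFN-γ they ran from 0.14 (Casp9) to 0.47 (Casp8). The Casp9 value with IFN-γ was within its scanner error of 0.20, and was 0.01 at the lowest under the other settings. The other apoptotic differences were beyond that error. In bulk RNA of a culture, fewer cells that express a gene and less RNA per cell cannot be told apart.

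**Figure D4:**
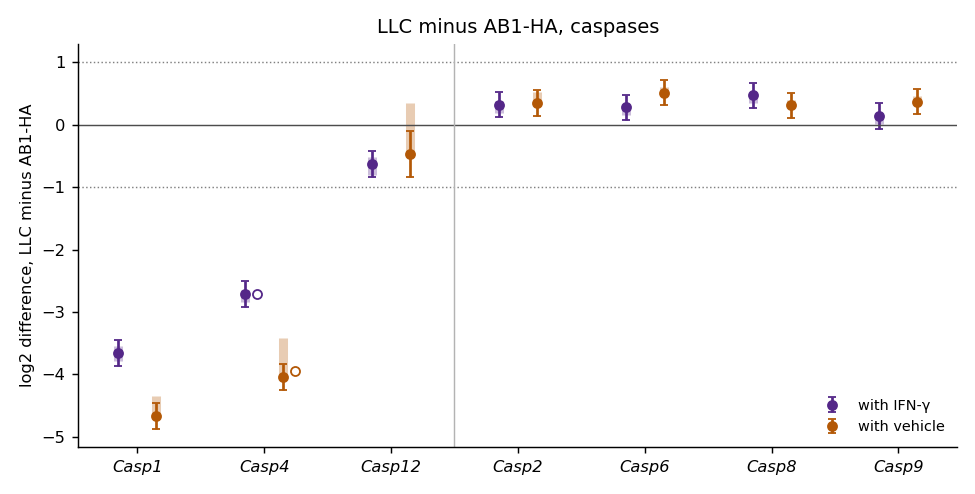
Log2 difference between LLC and AB1-HA for each caspase with IFN-γ and with vehicle, marked as in the plot of IFN-γ differences. Casp1 and Casp4 lie between −4.66 and −2.71, Casp12 at −0.63 with IFN-γ and −0.48 with vehicle, and the apoptotic members between 0.14 and 0.51.

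The third question was whether the IFN-γ effect itself differed in size between the lines. The effect on Casp4 was larger in LLC than in AB1-HA by 1.33 ± 0.29 on the log2 scale (2.51-fold), and that on Casp1 by 1.01 ± 0.29 (2.01-fold). Of 11985 genes measured on all arrays, 2.54% had an effect at least 2-fold larger in LLC and 4.23% one that differed by 2-fold in either direction. The Casp1 value sits at the 2-fold line and was under it with array median scaling (0.87), cyclic loess (0.92), normexp (0.79) and the authors' value table (0.998), and Casp4 was under it with normexp (0.77). For Casp12 the effects differed by −0.15 ± 0.42, less than the scanner error, but by −0.86 with normexp, and for the apoptotic members by −0.23 to 0.16, all less than their error of 0.29. The larger differences of Casp1 and Casp4 were thus in the line with the lower vehicle signal.

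Among the 11985 genes measured on all 4 arrays, the genes whose pattern lay nearest to each member were found by the Euclidean distance between log2 values centred on their mean over the 4 arrays. Nearest to Casp1 were Upk3bl (distance 0.20), Casp4 (0.86) and Trim30d (1.08). Upk3bl was 3.37 higher with IFN-γ in LLC and 2.16 higher in AB1-HA, and its difference between LLC and AB1-HA with vehicle was −4.61. Nearest to Casp4 were Apol7a (0.54), Upk3bl (0.67) and Casp1 (0.86). Nearest to Casp12 were H2-Q10 (0.18) and H2-Q6 (0.26), both MHC class I genes with near-identical relatives that a probe may not separate, and Ddx58 (0.35), which encodes the RNA sensor RIG-I. For the apoptotic members, which barely moved, the 3 nearest genes lay at distances of 0.02 to 0.08 and included Ppme1 for Casp2, Uvrag for Casp6, Cdk12 for Casp8 and Cstf3 for Casp9.

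Cflar, which encodes the caspase-8 regulator c-FLIP, was at 0.35 in LLC and −0.36 in AB1-HA on the log2 scale, and Casp14, a caspase of the epidermis, was at 0.22 and 0.03.

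The genes around the inflammatory caspases were described next, from lists of pathway members. Of 16 inflammasome and pyroptosis genes with a value in LLC, 3 were at least 2-fold higher with IFN-γ and 0 lower (median 0.43). Of 17 in AB1-HA, 4 were that much higher and 0 lower (median 0.30). Over all genes, 3.68% were that much higher in LLC and 2.98% in AB1-HA, with medians of −0.06 and −0.08. Gsdmd, which encodes the pore-forming substrate gasdermin D, had 10 spots on each array, and its log2 difference was 1.43 ± 0.03 in LLC and 1.38 ± 0.04 in AB1-HA (SD over 10 spots of 1 array pair). Il18bp, the secreted inhibitor of IL-18, was higher by 4.82 in LLC and 4.35 in AB1-HA, and Ifi204, of the AIM2-like receptor family, by 2.13 and 1.81. Naip6, of the NAIP family that senses bacterial proteins, was 1.23 higher in AB1-HA, or 0.69 with normexp, and 0.31 higher in LLC.

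The cytokine substrates were mostly dim. Il1a and Il1b were not well above background on any array, with 0 of 10 Il1b spots passing on each. Il18 had 656 units in LLC with IFN-γ, against 377 with vehicle, a log2 difference of 0.99. In AB1-HA it had 17.0 units with IFN-γ and was not well above background with vehicle, which gives at least 1.998-fold. The line with the higher Casp1 signal thus had the dimmer Il18 signal.

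Between the lines, 8 of the 18 measured inflammasome and pyroptosis genes were 2-fold lower or more in LLC with vehicle and 2 higher (median −0.90), and the counts with IFN-γ were again 8 lower and 2 higher (median −0.54). The medians over all genes were −0.05 with vehicle and 0.03 with IFN-γ. Over all genes, 16.0% were at least 2-fold lower in LLC with vehicle and 13.3% with IFN-γ, and 32.5% and 28.6% differed in either direction. The 2 higher genes were Panx1 and Il18, and some of the counted values are bounds. Panx1 was higher in LLC by at least 9.04 with vehicle and 9.38 with IFN-γ, and was not well above background in AB1-HA. Il18 was higher by at least 5.30 with vehicle and by 5.29 with IFN-γ. Nlrp3, the sensor that activates caspase-1 after membrane damage, had 9.29 units in LLC with IFN-γ and 240.3 in AB1-HA with IFN-γ, and 10.6 in LLC with vehicle and 216 in AB1-HA with vehicle, a log2 difference between the lines of −4.67 with IFN-γ and −4.56 with vehicle. Its LLC signals were close to the lowest ones well above background. Aim2, the sensor of cytosolic DNA, was also lower in LLC, at −1.71 with IFN-γ and −1.83 with vehicle, and so was Gsdmd, at −1.11 and −1.16. Pycard, the ASC adaptor that joins sensors to caspase-1, was within 2-fold, at −0.13 with IFN-γ and −0.92 with vehicle. Ripk3, the kinase of necroptosis that caspase-8 restrains, stood far apart, at −6.28 with IFN-γ and −6.19 with vehicle, with signals of 43.0 and 50.8 in LLC and of 3400.3 and 3197 in AB1-HA (IFN-γ, vehicle).

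The guanylate-binding proteins, which carry LPS of cytosolic bacteria to caspase-11, were grouped with the immunity-related GTPase gene Gm12250, the LPS receptor genes Tlr4 and Cd14 and the adaptor Ticam1. All 10 genes of this list named on the array had a value. At least 2-fold higher were 6 in LLC and 7 in AB1-HA, with 0 lower, against 3.68% and 2.98% of all genes higher. Gm12250 was among those higher in both lines, by bounds of at least 10.73 in LLC and 9.45 in AB1-HA. Gbp2 was higher by 11.30 in LLC and 10.08 in AB1-HA, and Gbp4 by bounds of at least 11.65 and 10.89. Gbp3 was higher by at least 12.54 in LLC and by 8.10 in AB1-HA. Gbp2b was higher in AB1-HA, with 65643 units with IFN-γ against 83.4 with vehicle (9.58), and stayed under 2-fold in LLC, with 17.4 against 12.7 (0.64), a difference of effects of −8.94. Tlr4, Cd14 and Ticam1 themselves were within 2-fold, between −0.22 and −0.12 in LLC and between 0.09 and 0.62 in AB1-HA.

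Over all genes, 3.68% were at least 2-fold higher with IFN-γ in LLC and 2.98% in AB1-HA, with medians of −0.06 and −0.08. Around the apoptotic caspases, the death receptor list had medians of 0.45 in LLC and 0.15 in AB1-HA. In each line 4 of its 13 genes were at least 2-fold higher and 0 lower. They were Fas, the receptor that recruits caspase-8 (2.40 in LLC and 2.55 in AB1-HA), the death ligand Tnfsf10, or TRAIL (at least 6.61 and 4.86), the necroptosis effector Mlkl (1.29 and 1.42) and the necroptosis sensor Zbp1 (at least 10.38 in LLC, and 4.84 in AB1-HA, where another probe gave 8.84). Among 7 genes of the inhibitor-of-apoptosis family and their antagonist, Xaf1, which antagonises XIAP, was higher (6.85 and 4.73), Naip2 was at 0.63 and 0.88, and Birc3 was at 0.36 and 0.77. The apoptosome and BCL-2 family had 1 of 17 genes higher in LLC and 0 of 16 in AB1-HA, with medians of 0.01 and −0.07. These counts and medians were near the shares and medians over all genes. Bid, which caspase-8 cuts to link death receptors to mitochondria, was at 1.05 in LLC (0.91 with array median scaling) and 0.81 in AB1-HA, and the pore-former Bak1 was at 0.77 in both. Bmf, a BH3-only activator of apoptosis, was at −0.98 in LLC and 0.97 in AB1-HA.

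No gene of the remaining lists passed 2-fold in either line, where 5.15% of all genes in LLC and 4.15% in AB1-HA did so. Both PIDDosome partners of caspase-2 had values, with medians of −0.16 in LLC and −0.09 in AB1-HA. The 9 endoplasmic reticulum stress genes, read beside Casp12, had medians of 0.07 and 0.12, with Trib3 at 0.79 and 0.60 and Ddit3 at 0.66 and 0.61, and the LLC median turned to −0.07 with array median scaling. The 8 caspase substrate genes had medians of −0.14 and −0.28, with Parp1, a DNA repair enzyme cut by caspases, at −0.42 and −0.32, and Rock1, a kinase cut during apoptosis, at −0.20 in LLC and 0.76 in AB1-HA, or 0.18 and 0.19 on its other probe.

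**Figure D5:**
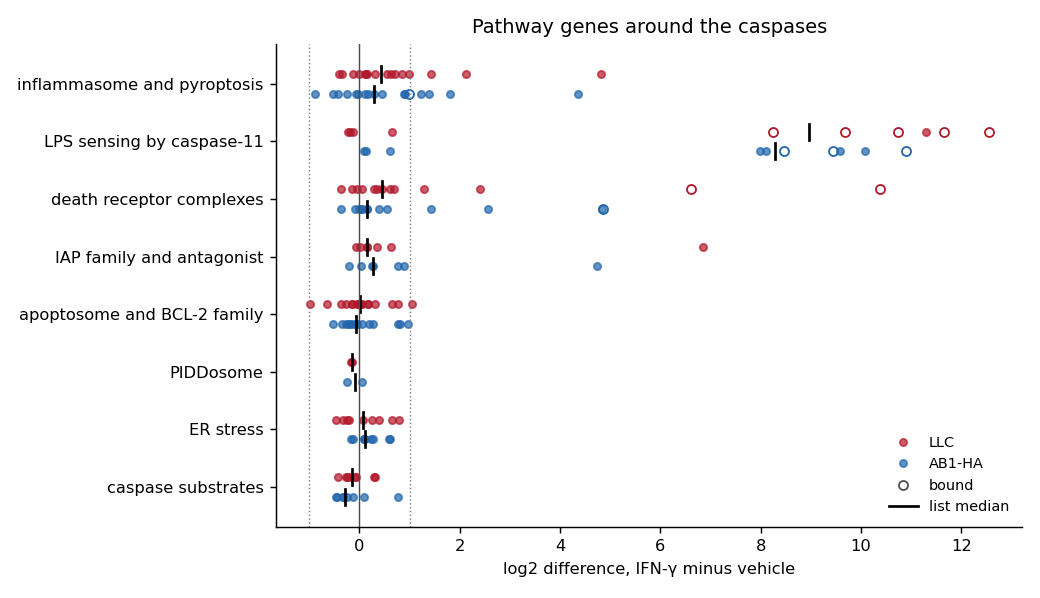
Log2 difference between IFN-γ and vehicle for the genes of 8 pathway lists with a value, LLC above AB1-HA within each list. Filled points were measured on both arrays, open points are bounds, black bars the list medians and dotted lines 2-fold, with the widest gains among the LPS-sensing genes and none past 2-fold among PIDDosome, endoplasmic reticulum stress and substrate genes.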

How the data were processed

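RNA of 4 cell cultures was labelled with Cy3 and hybridised to Agilent mouse arrays (design 026655), per the labels' protocols and the file headers. The deposited intensity values are the processed signals of Agilent Feature Extraction 10.7.1.1, per the file headers, a column from which that software subtracts background and which is not normalized between arrays. The authors also deposited a table of log2 values; the sources used here do not say how. Its columns correlated at 0.9988 to 0.9995 with scanner log2 signals scaled to the 75th percentile and centred per probe, in the same direction, with column medians of 0.08 and −0.13 in LLC (IFN-γ, vehicle) and −0.08 and 0.11 in AB1-HA.

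Control spots and spots marked as outliers (166 to 201 per array) were left out, repeat spots averaged, and the 75th percentile of an array's gene probes subtracted from its log2 signals. Accessions were matched, without version, to a RefSeq table of GRCm38.p6, used for names and gene order because the array headers name mm9; 26581 of 39429 probes were named, for 20140 genes, and the brightest probe stood for a gene. A gene well above background on 1 array of a pair has a bound, taken with the dim array at its own signal or at the lowest one well above background there, whichever is higher. Differences of 2-fold were counted; no test was run. The sources used here do not say whether cultures were pooled.

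The members and pathway lists were chosen with earlier results of these data known. The genes named are all members, Casp14 and Cflar, the response checks (Irf1, Irf8 and Cd274) and the largest differences of each pathway list. Others were singled out after their values were seen (Il1a, Il1b, Il18, Gm12250, Tlr4, Cd14, Ticam1, Nlrp3, Aim2, Pycard, Panx1, Ripk3 and the cell type markers). The 3 nearest patterns were found for each member. The calling code was run on simulated data with set changes, which checks the code and not the differences reported here. The alternatives were array median, quantile and cyclic loess scaling, normexp (offset 50) on median spot signals, the authors' table, stricter and no background filters, the mean of a gene's probes, outlier spots kept and saturated spots left out. Python 3.11.15, numpy 2.4.6, pandas 2.3.3, matplotlib 3.10.9, R 4.3.3 and limma 3.58.1 were used. Promoter sequences were copied from RefSeq tables of GRCm38.p6, which held windows for all 7 members. Some items are not reported here.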

Additional observations from a re-analysis of the deposited data

Results flagged for a closer look

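Among the caspases and the list genes named, the IFN-γ difference had opposite signs in LLC and AB1-HA for 14 genes, each on 1 pair of arrays per line, and these differences between lines were not tested. Casp9 was at −0.20 in LLC and 0.023 in AB1-HA, both within the scanner error. Bmf was at −0.98 in LLC and 0.97 in AB1-HA. Csf1r was at 1.74 in LLC and −0.35 in AB1-HA, and its other probe above background lay at 0.28 and −0.11. Cflar was at 0.35 in LLC and −0.36 in AB1-HA, and its other probes lay at 0.11 and 0.06 in LLC and at −0.18 and −0.46 in AB1-HA. Rock1 was at −0.20 in LLC and 0.76 in AB1-HA, but its other probe was positive in both, at 0.18 and 0.19. Pycard was at 0.71 in LLC and −0.075 in AB1-HA, and Napsa at −0.42, as a bound, in LLC and 0.15 in AB1-HA. Of the LPS receptor genes, Tlr4 was at −0.18 in LLC and 0.62 in AB1-HA, and Cd14 at −0.125 and 0.124. The adaptor Ticam1 was at −0.22 and 0.087. The remaining 4 were small: Nlrp3 at −0.00048 in LLC and 0.11 in AB1-HA, Ripk3 at −0.049 and 0.049, Cd3e at 0.38 and −0.050, and Fcer1g at 0.099 and −0.085. The LLC sign of Fcer1g turned with array median, quantile and cyclic loess scaling, that of Ripk3 with normexp, and the AB1-HA sign of Cd3e with cyclic loess and normexp.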

How the results depend on the processing

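No paired analysis was possible because each group held 1 array, and no replicate could be left out. Of 1295 values recomputed under 10 alternatives, 0 changed sign among differences past 2-fold, and 1266 stayed on their side of 2-fold or, for counts, within 1.5 times. Part of this was fixed in advance. No spot was saturated, so leaving out saturated spots could change nothing. Nor could the stricter and absent background filters move a gene well above background on all 4 arrays, as all 7 members were. The number of caspases at least 2-fold apart between IFN-γ and vehicle, or between the lines in either condition, stayed the same under all alternatives, except for 2 in place of 3 in LLC with normexp (Casp12). The number whose IFN-γ effects differed by 2-fold between the lines, 2, was 1 with array median scaling, cyclic loess and the authors' value table and 0 with normexp; the cause was not tested. The Casp12 difference in LLC ran from 0.56 (normexp) to 2.72, and the Casp1 differences from 3.09 to 3.34 in LLC and from 2.26 to 2.41 in AB1-HA. Naip6 in AB1-HA fell under 2-fold with normexp (0.69), and Csf1r in LLC with the mean of its probes (0.92). Bmf passed it in LLC with 3 scalings (down to −1.12) and in AB1-HA with cyclic loess (1.03). Il18 in AB1-HA passed it with quantile (1.05) and cyclic loess (1.03) scaling, with outlier spots kept (1.001) and with no background filter (2.55). Of all genes past 2-fold in LLC, 55.5% were higher with array median scaling, 60.2% with quantile and 56.7% with cyclic loess, against 71.6% here, and normexp left 253 higher and 20 lower genes, against 494 and 196. In AB1-HA cyclic loess gave 80.9% higher, against 71.9%, and normexp 260 higher and 20 lower genes, against 394 and 154. Signals near background, such as those of Casp12 with vehicle, limit how well the size of a difference is known. The IFN-γ effect was larger in LLC for 60.0% of the genes past 2-fold, against 39.9%, 49.1% and 37.8% with array median, quantile and cyclic loess scaling. The list of LPS-sensing genes had 1 higher gene in LLC and 2 in AB1-HA over genes measured on all 4 arrays, since bounds are then left out. In AB1-HA, genes measured there but not well above background in LLC with vehicle, such as Gbp3, were left out as well.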
